A study of Homo sapiens with 12 samples.

Results

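The 10 genes described here encode enzymes that make the non-essential amino acids serine, asparagine, proline and cysteine, or that pass on the one-carbon units of serine. They were chosen by function, with earlier results of these data known. Shares of all genes set beside them are therefore descriptions only. They were taken as the rows of the expression table named ASNS, PHGDH, PSAT1, PSPH, SHMT2, MTHFD2, ALDH18A1, PYCR1, CBS and CTH. These are 10 of 34687 rows. RNA came from HCT116, a human colon cancer line, and PANC1, a human pancreatic adenocarcinoma line, and was read on Illumina HumanHT-12 v4 expression BeadChips. Cells of each line were treated with the solvent DMSO at 0.05%, as the control, or with ICG-001 or C646, each at 10 uM, and RNA was taken 12 or 96 h later. RNA came from whole cultures, so fewer expressing cells and less RNA per cell cannot be told apart. ICG-001 is a small molecule that keeps the co-activator CBP from binding β-catenin, and C646 inhibits the histone acetyltransferase activity of CBP and of its relative p300. The study asked whether blocking CBP alone and blocking both acetyltransferases change the transcriptome in different ways. Per the study's methods, cells for the 96 h treatments were started at a lower density, were passaged and were given fresh medium and drug each day, so time in the drug, density and passage cannot be told apart.

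Serine is made from a glycolytic intermediate in 3 enzymatic steps by PHGDH, PSAT1 and PSPH. SHMT2 then splits serine into glycine and a folate-bound one-carbon unit in mitochondria, and MTHFD2 oxidises that unit, which feeds purine and thymidylate synthesis. ASNS makes asparagine from aspartate and glutamine, ALDH18A1 and PYCR1 catalyse the first and last steps from glutamate to proline, and CBS and CTH join serine to homocysteine and release cysteine, a route named transsulfuration. Several of these genes are known targets of ATF4, the transcription factor of the amino acid and integrated stress responses, and many tumour cells depend on the serine branch.

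Each of the 12 groups (line, treatment and time) had 1 column of signal intensity, in which the authors had averaged 2 arrays (3 for PANC1 cells kept 12 h in ICG-001). No replicate check was therefore possible and no test was run, so all values below are sizes of differences between columns, limited in precision by that number of arrays. A gene entered a comparison when at least 1 of the columns compared was above the detection limit, which lay at a signal of 144 to 145 (HCT116) or 136 to 138 (PANC1). It is said to have risen or fallen, or to have been called, at a ratio of at least 1.5-fold, which is 0.58 on the log2 scale. As a measure of background noise, the log2 ratios of dim genes had an SD of 0.062 to 0.074 in the 18 comparisons. Between 43.8% and 46.5% of rows were above the limit in a column. Sorted signals differed little between columns of a line (a mean absolute log2 difference of 0.0037 to 0.0093) and more between lines (0.0628 to 0.0661), so signals were compared only within a line and lines through their ratios. The epithelial markers EPCAM, CDH1, KRT8, KRT18 and KRT19 were above the limit in 6 of 6 columns of each line. Of 5 intestinal markers, CDX2 was above it in 6 of 6 columns of HCT116 and GPA33 in 5 of 6, and CDX1, VIL1 and CDH17 were above it in 0. The immune, endothelial and fibroblast markers PTPRC, CD3E, PECAM1 and DCN were above it in 0 columns of either line. The collagen gene COL1A1, however, was above it in 6 of 6 columns of both lines. A second collagen gene, COL3A1, was above it in 5 of 6 columns of PANC1 and 0 of HCT116.

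ICG-001 was followed by higher signals of most of these enzymes in both lines. Differences with C646 were mostly smaller, with 1 call, although some lay just under the threshold. ASNS, PHGDH, PSAT1 and MTHFD2 rose in all 4 comparisons of ICG-001 with DMSO, 4 of the 9 members above the limit in each of them, whereas 0.599% of all 13861 genes compared in this way did so. The smallest of these rises, PHGDH in HCT116 at 12 h (log2 ratio 0.61), fell just under the threshold with quantile normalization over all 12 columns (0.578), and with the DMSO column of the other time as the control, PSAT1 was the single member still called in all 4. The largest rise was that of PSAT1 in HCT116 at 96 h (4.55-fold), followed by ASNS in PANC1 at 12 h (3.63-fold). ALDH18A1 was the single member with no call in any comparison with either drug. In HCT116, both ICG-001 columns lay above the other 4 columns for 7 of 10 members, against 12% of 18708 genes detected in that line. In PANC1 they did so for 9 of 10 members, against 9.42% of 19036 genes.

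**Figure D1:**
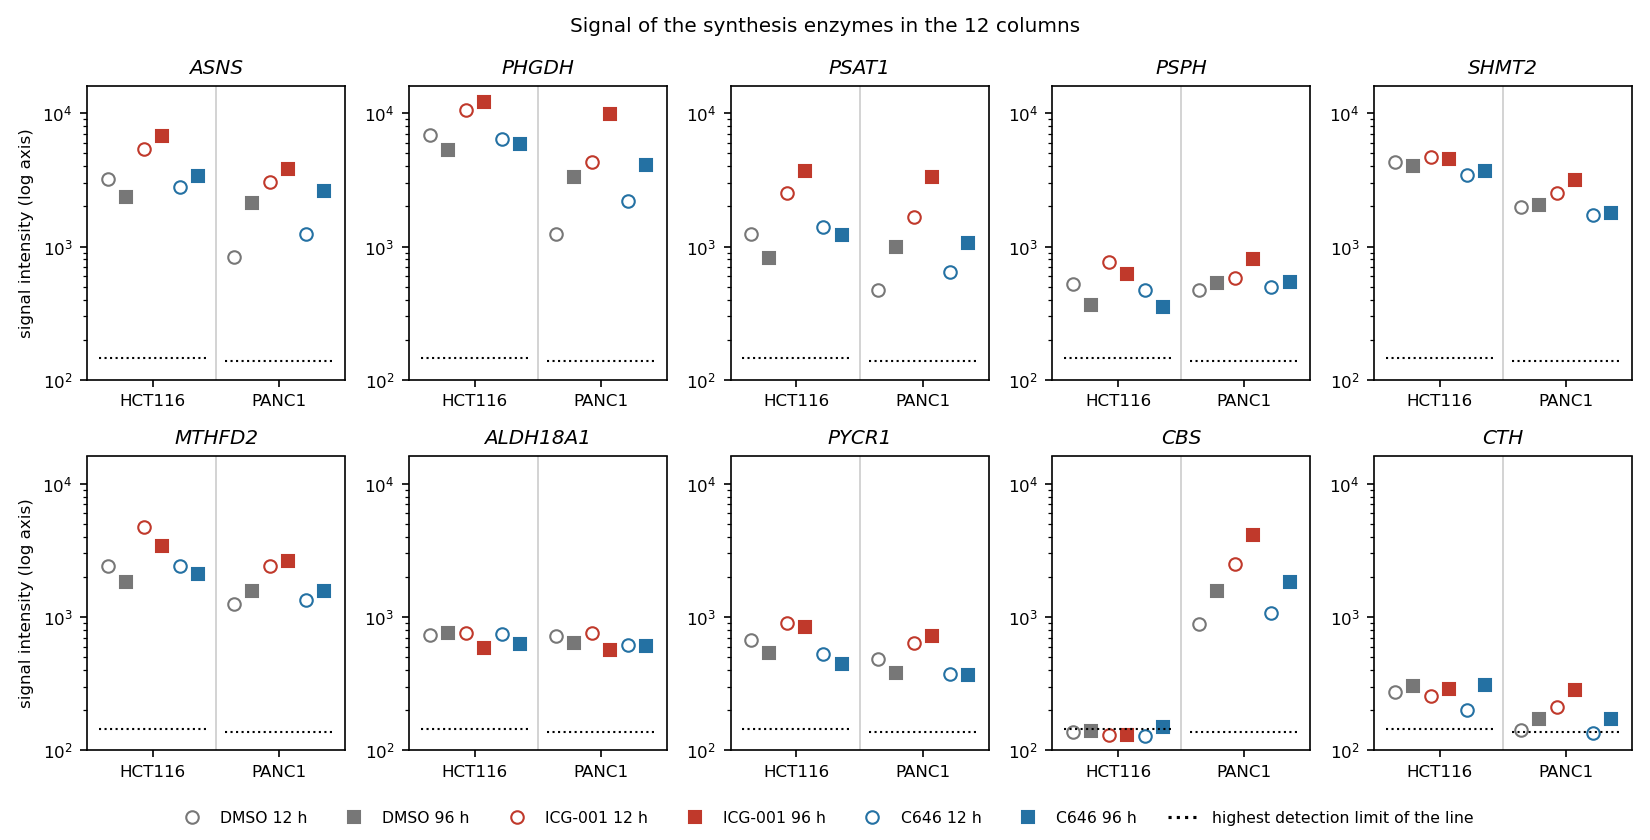
Signal intensity (log axis) of each of the 10 enzymes in the 6 columns of HCT116 and the 6 columns of PANC1; open circles are 12 h, filled squares 96 h, colours are treatments, and the dotted line is the highest detection limit of the line. The red ICG-001 symbols lie above the grey DMSO and blue C646 symbols for 7 of 10 genes in HCT116 and 9 of 10 in PANC1.

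In the comparisons with DMSO, members rose with ICG-001 in 24 instances and fell in 0. In HCT116 at 12 h, 4 of 9 members above the limit had risen (4.94% of all genes) and 0 had fallen (4.26% of all genes), with a median log2 ratio of 0.55. Percentages here and below are the share of all genes above the limit in the same comparison that were called in the same direction. At 96 h in HCT116, 6 of 9 had risen (5.23% of all genes) and 0 had fallen (5.21%), with a median of 0.78. In PANC1 at 12 h, 5 of 10 had risen (2.23% of all genes) and 0 had fallen (0.343%), with a median of 0.76. At 96 h in PANC1, 9 of 10 had risen (3.92% of all genes) and 0 had fallen (3.63%), with a median of 0.79. The median over all genes was within 0.01 of 0 on the log2 scale in these 4 comparisons.

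C646 over DMSO gave 1 call among the members, the rise of PHGDH in PANC1 at 12 h. In HCT116, 0 of 9 members rose (2.66% of all genes) and 0 fell (1.57%) at 12 h, and 0 of 10 rose (1.94%) and 0 fell (1.25%) at 96 h. In PANC1, 1 of 10 rose (4.06% of all genes) and 0 fell (2.74%) at 12 h, and 0 of 10 rose (2.86%) and 0 fell (1.21%) at 96 h. The members' median log2 ratios at 12 and 96 h were -0.15 and 0.07 (HCT116) and 0.09 and 0.01 (PANC1). The comparisons of both drugs with DMSO share their control columns.

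The direct comparison of the drugs, at the same dose and time, does not use the DMSO columns. ICG-001 over C646 gave 26 rises among the members and 0 falls. In HCT116, 6 of 9 members were higher (3.52% of all genes) and 0 lower (2.88%) at 12 h, and 6 of 10 were higher (3.29%) and 0 lower (3.33%) at 96 h. In PANC1, 7 of 10 were higher (1.61% of all genes) and 0 lower (0.947%) at 12 h, and 7 of 10 were higher (3.39%) and 0 lower (3.55%) at 96 h. The median log2 ratios were 0.72 and 0.77 (HCT116) and 0.82 and 0.78 (PANC1). PHGDH, PSAT1, MTHFD2 and PYCR1 were higher with ICG-001 in all 4 of these comparisons, 4 of the 9 members above the limit in each, against 0.35% of 13982 genes. ASNS missed this count by its log2 ratio of 0.56 in PANC1 at 96 h.

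**Figure D2:**
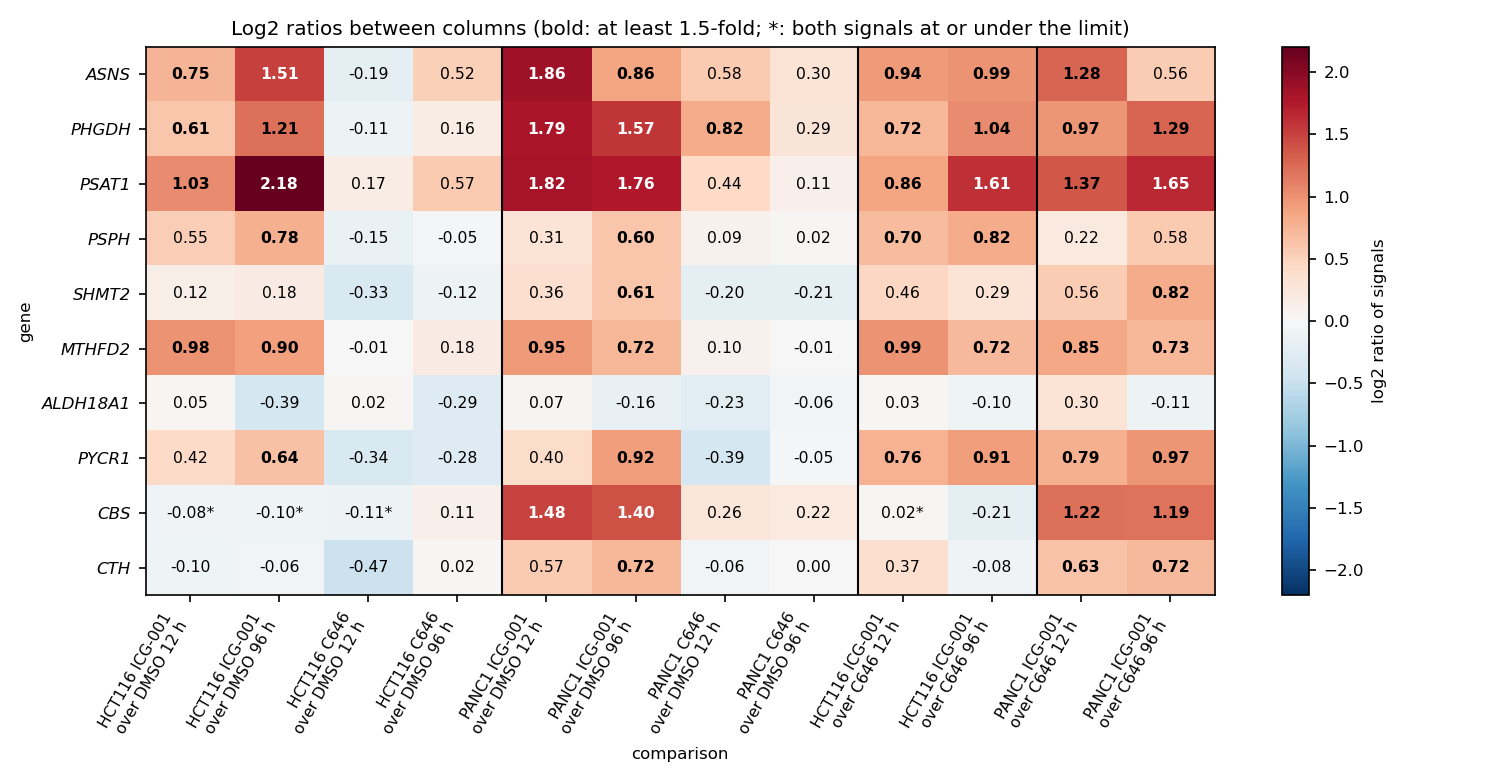
Log2 ratio of signals for each of the 10 enzymes (rows) in the 8 comparisons of a drug with DMSO and the 4 of ICG-001 with C646 (columns); bold values are at least 1.5-fold and an asterisk marks pairs of signals at or under the detection limit. The ICG-001 columns hold 24 bold values against DMSO and 26 against C646, and the C646 over DMSO columns hold 1.

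Because ASNS, PHGDH, PSAT1 and MTHFD2 rose together, the DNA at their start sites was read from RefSeq (GRCh38.p14), from 250 bases before to 50 bases after a start, on the strand of the gene. Of the 10 members, 7 matched a window in this table, with 10 windows in all, and PSPH, SHMT2 and PYCR1 did not. Windows were searched on both strands for the C/EBP-ATF response element, to which ATF4 is known to bind (TGATGNAA, or TTNCATCA on the other strand), and for the E-box CACGTG, to which MYC is known to bind and which reads the same on both strands. The motifs can share the letters TG, and their matches among the members lay in different genes. The response element was in 1 of 10 member windows, 1 of the 2 of ASNS, where TGATGAAA begins at base -68 from the start site. It was in 3.62% of all 35116 windows. The E-box was in 1 of 10 member windows, that of ALDH18A1 at base -136, and in 7.26% of all windows. A match is a description of the letters and not of a bound site. For the 4 enzymes that rose in every ICG-001 comparison, a window each follows (for ASNS the one with the match, whose neighbour at chr7:97872116-97872415 holds none), with the match to the response element in capitals and all other bases in lower case; ASNS is at chr7:97872359-97872658 on the minus strand, PSAT1 at chr9:78296875-78297174, PHGDH at chr1:119711684-119711983 and MTHFD2 at chr2:74198365-74198664 on the plus strand.
ASNS: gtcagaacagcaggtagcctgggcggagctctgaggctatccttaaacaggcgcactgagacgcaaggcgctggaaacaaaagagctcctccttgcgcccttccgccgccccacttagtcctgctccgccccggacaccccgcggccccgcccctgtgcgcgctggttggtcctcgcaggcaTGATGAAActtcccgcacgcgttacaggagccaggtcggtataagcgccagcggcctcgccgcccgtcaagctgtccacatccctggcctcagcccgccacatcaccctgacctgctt
PSAT1: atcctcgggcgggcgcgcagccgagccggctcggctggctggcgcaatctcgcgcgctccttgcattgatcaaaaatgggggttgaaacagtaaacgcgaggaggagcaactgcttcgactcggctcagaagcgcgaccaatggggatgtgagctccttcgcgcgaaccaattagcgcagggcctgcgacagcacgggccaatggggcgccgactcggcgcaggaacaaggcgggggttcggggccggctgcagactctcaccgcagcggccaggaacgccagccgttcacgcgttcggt
PHGDH: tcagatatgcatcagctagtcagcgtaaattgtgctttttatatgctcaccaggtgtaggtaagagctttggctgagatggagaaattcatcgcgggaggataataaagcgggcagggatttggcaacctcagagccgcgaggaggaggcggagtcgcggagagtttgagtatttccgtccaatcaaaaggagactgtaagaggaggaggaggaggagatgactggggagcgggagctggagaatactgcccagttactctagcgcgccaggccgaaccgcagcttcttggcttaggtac
MTHFD2: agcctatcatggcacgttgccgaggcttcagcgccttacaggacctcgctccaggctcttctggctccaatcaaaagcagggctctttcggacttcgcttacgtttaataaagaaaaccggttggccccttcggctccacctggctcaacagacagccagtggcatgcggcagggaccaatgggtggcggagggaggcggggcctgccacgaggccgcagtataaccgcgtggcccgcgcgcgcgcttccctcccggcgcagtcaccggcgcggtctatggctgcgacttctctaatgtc

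ASNS, asparagine synthetase, is a textbook target of the amino acid response. In HCT116, ASNS had a signal of 3194 then 2371 under DMSO, 5375 then 6755 under ICG-001, and 2795 then 3404 under C646, the 12 h value first and the 96 h value next, as in all sentences of this form. In PANC1, ASNS had 836 then 2119 under DMSO, 3035 then 3846 under ICG-001, and 1246 then 2609 under C646. In each line, both ICG-001 columns were above all others. The rise over DMSO was 1.68-fold and 2.85-fold in HCT116, and 3.63-fold and 1.82-fold in PANC1. The smaller late value in PANC1 stood beside a DMSO signal 2.54-fold higher at 96 h than at 12 h. With C646, the log2 ratios of ASNS in HCT116 were -0.19 and 0.52 and those of PANC1 0.576 and 0.30. None was called, and the largest (1.49-fold) lay just under the threshold.

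PHGDH, phosphoglycerate dehydrogenase, catalyses the first and committed step of serine synthesis. In HCT116, PHGDH had a signal of 6876 then 5276 under DMSO, 10509.5 then 12195 under ICG-001, and 6372 then 5913 under C646. In PANC1, PHGDH had 1252 then 3339 under DMSO, 4332 then 9935 under ICG-001, and 2209 then 4076 under C646. The 2 ICG-001 columns were the highest of each line, although in PANC1 the 12 h value with ICG-001 (4332) was close to the 96 h value with C646 (4076). PHGDH rose 1.53-fold and 2.31-fold over DMSO in HCT116, and 3.46-fold and 2.97-fold in PANC1. With the 96 h DMSO column as the control, the 12 h value in PANC1 was 0.38 on the log2 scale and no longer called. Its rise of 1.76-fold with C646 in PANC1 at 12 h (log2 ratio 0.82) used the low DMSO column of that time, and the log2 ratio was -0.60 with the 96 h DMSO column as the control.

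PSAT1, phosphoserine aminotransferase, carries out the next step and uses glutamate as the nitrogen donor. In HCT116, PSAT1 had a signal of 1243 then 816 under DMSO, 2541 then 3709 under ICG-001, and 1398 then 1213 under C646. In PANC1, PSAT1 had 476 then 988 under DMSO, 1676 then 3348 under ICG-001, and 647 then 1065 under C646. It rose 2.05-fold and 4.55-fold over DMSO in HCT116, and 3.52-fold and 3.39-fold in PANC1, and the ICG-001 columns did not overlap the others in either line. Over C646 it was higher by 1.82-fold and 3.06-fold in HCT116, and by 2.59-fold and 3.15-fold in PANC1.

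PSPH, phosphoserine phosphatase, releases serine in the last step, and its differences were smaller. In HCT116, PSPH had a signal of 519 then 363 under DMSO, 760.1 then 623 under ICG-001, and 469 then 352 under C646. In PANC1, PSPH had 471 then 535 under DMSO, 583 then 812 under ICG-001, and 501 then 544 under C646. The ICG-001 columns were again the highest of each line. The ratio passed 1.5-fold over DMSO at 96 h in both lines (1.71-fold in HCT116 and 1.52-fold in PANC1) and at 12 h was 1.46-fold and 1.24-fold. The row of its pseudogene, listed as PSPHL, was above the limit in 0 of 6 HCT116 columns and 1 of 6 PANC1 columns, and which of both genes a probe reads was not tested.

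MTHFD2, the mitochondrial methylene-tetrahydrofolate dehydrogenase and cyclohydrolase, rose by a similar amount in all 4 ICG-001 comparisons. In HCT116, MTHFD2 had a signal of 2409.8 then 1842 under DMSO, 4755 then 3438 under ICG-001, and 2401 then 2088 under C646. In PANC1, MTHFD2 had 1259.7 then 1581 under DMSO, 2425 then 2612 under ICG-001, and 1348 then 1571 under C646. Its rise over DMSO was 1.97-fold and 1.87-fold in HCT116, and 1.93-fold and 1.65-fold in PANC1. The log2 ratios of C646 over DMSO were between -0.01 and 0.18, rounded, over both lines.

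SHMT2, the mitochondrial serine hydroxymethyltransferase that supplies MTHFD2's pathway, differed less than MTHFD2. In HCT116, SHMT2 had a signal of 4339 then 3998 under DMSO, 4722 then 4523 under ICG-001, and 3441 then 3687 under C646. In PANC1, SHMT2 had 1969 then 2066 under DMSO, 2534 then 3163 under ICG-001, and 1719 then 1787 under C646. In both lines the 2 ICG-001 columns were the highest and the 2 C646 columns the lowest. Over DMSO it passed 1.5-fold in 1 comparison, PANC1 ICG-001 at 96 h (1.53-fold), and its other log2 ratios ranged from 0.12 to 0.36 with ICG-001 and from -0.33 to -0.12 with C646.

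The proline branch was split. ALDH18A1, which makes the first committed intermediate of proline, had a signal of 739 then 765 under DMSO, 764 then 586 under ICG-001, and 750.4 then 627 under C646 in HCT116. In PANC1, ALDH18A1 had 721 then 635 under DMSO, 755 then 567 under ICG-001, and 614 then 611 under C646. Its lowest column in each line was ICG-001 at 96 h, with log2 ratios of -0.39 and -0.16 to DMSO that did not reach the threshold. PYCR1, the mitochondrial pyrroline-5-carboxylate reductase that completes proline, was highest with ICG-001. In HCT116, PYCR1 had 674 then 541 under DMSO, 903 then 842 under ICG-001, and 531 then 447 under C646. In PANC1, PYCR1 had 488 then 379 under DMSO, 643 then 717 under ICG-001, and 372 then 367 under C646. PYCR1 rose over DMSO at 96 h (1.56-fold in HCT116 and 1.89-fold in PANC1), was at 1.34-fold and 1.32-fold at 12 h, and was higher than with C646 in all 4 comparisons (1.70-fold to 1.96-fold).

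The transsulfuration enzymes differed between the lines. CBS, cystathionine beta-synthase, was at background in HCT116, with a signal of 138 then 139.6 under DMSO, 129.6 then 130.1 under ICG-001, and 127 then 151 under C646, of which the last was above the limit. In PANC1, CBS was above the limit in all 6 columns, with 895 then 1568 under DMSO, 2503 then 4149 under ICG-001, and 1075 then 1821 under C646. It rose 2.80-fold and 2.65-fold with ICG-001 over DMSO there and was higher than with C646 by 1.22 and 1.19 on the log2 scale. CBS is also an older name of a second RefSeq gene, LOC102724560, and which of these the probe reads was not tested.

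CTH, cystathionine gamma-lyase, had a signal of 276 then 302 under DMSO, 257 then 289.8 under ICG-001, and 199 then 307 under C646 in HCT116. The ICG-001 columns of HCT116 lay within the range of the others. In PANC1, CTH was near the limit, with 141 then 171 under DMSO, 209.96 then 283 under ICG-001, and 136 then 172 under C646. In that line both ICG-001 columns were the highest. CTH rose 1.65-fold over DMSO at 96 h in PANC1 (1.49-fold at 12 h), and at 12 h was at least 1.54-fold higher than with C646, whose column was under the limit. CTH is also listed as an older name of VSIG2.

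Control cells differed between the time points, with opposite signs in the lines for several enzymes. In HCT116 with DMSO, 1 of 9 members was lower at 96 h than at 12 h (1.6% of all genes) and 0 were higher (1.59%), with a median log2 ratio of -0.38. PSAT1 was the one that fell (1.52-fold). In PANC1 with DMSO, 4 of 10 members were higher at 96 h (0.991% of all genes) and 0 were lower (0.336%), with a median of 0.30. These were PHGDH (2.67-fold), ASNS (2.54-fold), PSAT1 (2.08-fold) and CBS (1.75-fold).

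The same 4 genes had positive log2 ratios of 96 h over 12 h in the drug-treated PANC1 cells too. With ICG-001 the folds of 96 h over 12 h were 2.29 for PHGDH, 2.00 for PSAT1, 1.66 for CBS and 1.27 for ASNS, and with C646 they were 1.84, 1.65, 1.69 and 2.09 in that order. In HCT116 the corresponding values of ASNS, PHGDH and PSAT1 were negative with DMSO (-0.43, -0.38 and -0.61) and positive with ICG-001 (0.33, 0.21 and 0.55), and with C646 they were 0.28, -0.11 and -0.21. PSPH and MTHFD2 were lower at 96 h in all 3 treatments of HCT116 (log2 ratios -0.52 to -0.29 and -0.47 to -0.20) and higher in all 3 of PANC1 (0.12 to 0.48 and 0.11 to 0.33), none past 1.5-fold.

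**Figure D3:**
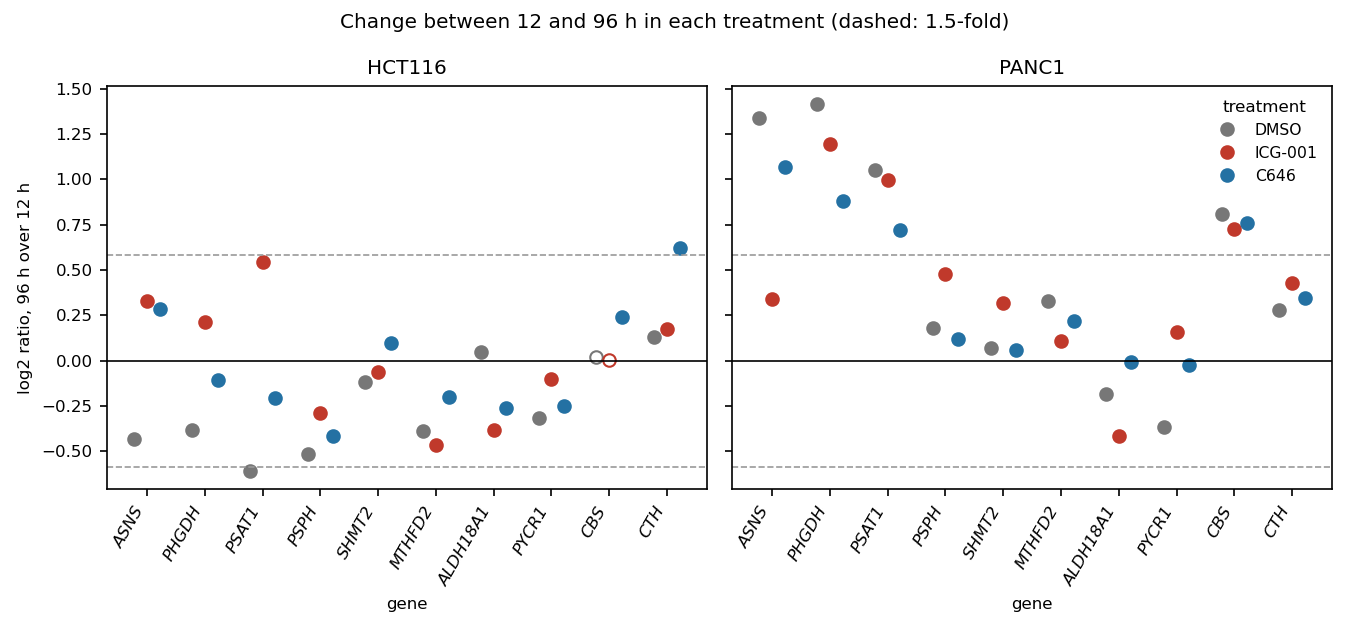
Log2 ratio of 96 h over 12 h for each of the 10 enzymes, by treatment (colours), in HCT116 and PANC1; dashed lines mark 1.5-fold and open circles pairs of signals at or under the limit. ASNS, PHGDH, PSAT1 and CBS lie above 0 for every treatment in PANC1, and DMSO values of ASNS, PHGDH, PSAT1, PSPH and MTHFD2 lie below 0 in HCT116.

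The control column therefore moved the size of the ICG-001 values. With the DMSO column of the other time as the control, the log2 ratios at 12 h in PANC1 went from 1.86 to 0.52 for ASNS, from 1.79 to 0.38 for PHGDH and from 1.48 to 0.67 for CBS, so that ASNS and PHGDH were no longer called. For PSAT1 the value went from 1.82 to 0.76 and for MTHFD2 from 0.95 to 0.62. In HCT116 at 96 h, the count of members that had risen went from 6 to 3 (ASNS, PHGDH and PSAT1), and PSPH, MTHFD2 and PYCR1 had 0.26, 0.51 and 0.32.

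Among the enzymes that rose, the order of the columns was alike to different degrees. Over the 6 columns of HCT116, the Pearson correlation of log2 signals was 0.97 between ASNS and PHGDH, 0.97 between ASNS and PSAT1, and 0.98 between PHGDH and PSAT1. Over those of PANC1 it was 0.96, 0.93 and 0.97, and CBS had 0.95 to 1.00 with the same genes. Some other pairs were as alike, such as PSAT1 with PSPH (0.96) and with MTHFD2 (0.96) in PANC1, and others were less so. In PANC1, PYCR1 had 0.47 with ASNS and 0.53 with PHGDH. SHMT2 and CTH had no call with ICG-001 over DMSO in HCT116. In that line SHMT2 had 0.60 with PSAT1, and CTH had 0.14 with ASNS and -0.09 with PSAT1. These are descriptions over 6 columns that share their normalization and treatments. Among 2373 genes above the limit in all 12 columns that varied at least 1.5-fold in each line, the 5 other rows most like the mean profile of 8 members (centred within each line) were a row with a UniGene name and no gene symbol (r = 0.985), TRIB3 (0.974), GPT2 (0.974), PCK2 (0.971) and GARS (0.970). TRIB3 is a pseudokinase of the stress response, GPT2 the mitochondrial alanine aminotransferase, PCK2 the mitochondrial phosphoenolpyruvate carboxykinase and GARS, an older name listed for both GARS1 and GART, the glycyl-tRNA synthetase if it is the former. PSAT1 (0.977), MTHFD2 (0.950), PHGDH (0.942), ASNS (0.931), PSPH (0.893) and PYCR1 (0.821) are part of that profile.

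A further 73 genes of serine and glycine, folate, glutamine and aspartate, proline and arginine, methionine and cysteine, glutathione and purine metabolism were set beside the members. With ICG-001 in HCT116 at 12 h, 4 of 61 above the limit rose (4.94% of all genes) and 5 fell (4.26%), with a median log2 ratio of -0.05. At 96 h there, 10 of 62 rose (5.23%) and 8 fell (5.21%), with a median of 0.07. With ICG-001 in PANC1 at 12 h, 2 of 59 rose (2.23%) and 0 fell (0.343%), with a median of -0.01. At 96 h there, 7 of 60 rose (3.92%) and 3 fell (3.63%), with a median of -0.07. With C646 in HCT116, 1 of 62 rose (2.66%) and 0 fell (1.57%) at 12 h, and 0 of 63 rose (1.94%) or fell (1.25%) at 96 h. With C646 in PANC1, 1 of 58 rose (4.06%) and 4 fell (2.74%) at 12 h. At 96 h there, 1 of 59 rose (2.86%) and 0 fell (1.21%). The medians of these wider lists were thus nearer 0 than those of the 10 enzymes with ICG-001. Their calls with ICG-001 at 96 h went in both directions in both lines. Rises there were more frequent than among all genes, as were falls in HCT116. Falls in PANC1 (3 of 60) were near the share of all genes (3.63%).

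By list, the group of glutamine, glutamate and aspartate genes had the highest median with ICG-001 at 96 h in PANC1 (0.50), and in HCT116 it was 0.45. GOT1, the cytosolic aspartate aminotransferase, rose in both lines at both times (2.92-fold and 2.11-fold in HCT116, 2.01-fold and 2.30-fold in PANC1). GPT2 did so too, with log2 ratios of 0.96 and 1.49 in HCT116 and of 1.10 and 1.52 in PANC1. The 3 glutathione synthesis genes had a median of 0.66 in HCT116 and -0.17 in PANC1. The remaining lists had medians between -0.06 and 0.08 in HCT116 and between -0.15 and 0.01 in PANC1.

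**Figure D4:**
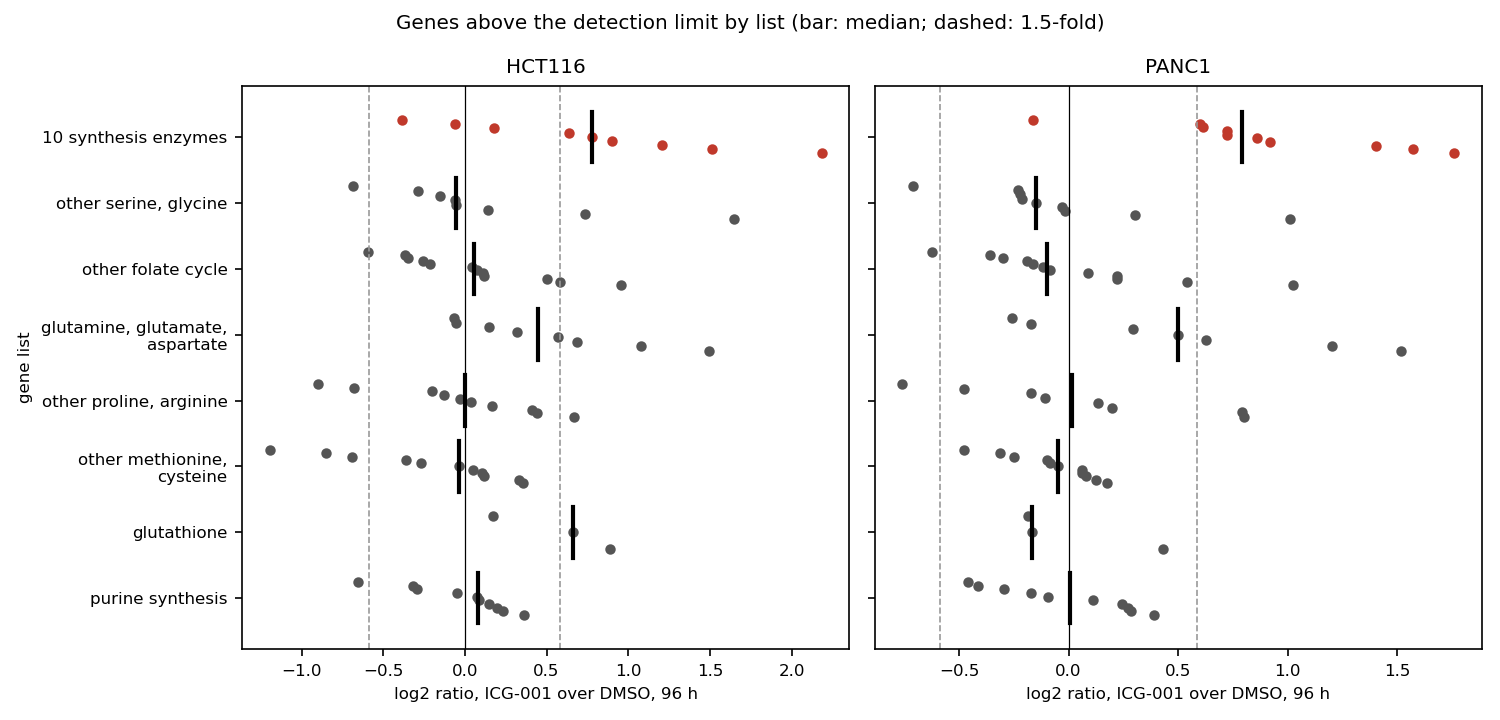
Log2 ratio of ICG-001 over DMSO at 96 h for each gene above the detection limit (points), by gene list, in HCT116 and PANC1; bars are medians and dashed lines mark 1.5-fold. The 10 synthesis enzymes (red) have medians of 0.78 and 0.79, and the glutamine, glutamate and aspartate genes 0.45 and 0.50.

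In HCT116, SDSL, a serine dehydratase-like enzyme, also rose with ICG-001 at both times (1.53 and 1.65 on the log2 scale). In PANC1 its log2 ratios with ICG-001 were 0.56 at 12 h and 1.01, a rise, at 96 h. SDSL rose with C646 at both times in PANC1 (0.62 and 0.71), the single gene of the wider lists to do so with that drug. The genes that fell at both times with ICG-001 in HCT116 were TYMS (thymidylate synthase, -1.13 and -0.59), OAT (ornithine aminotransferase, -0.72 and -0.90), P4HA1 (a collagen prolyl hydroxylase subunit, -0.67 and -0.68), MTAP (methylthioadenosine phosphorylase, -0.81 and -1.19) and GMPS (GMP synthetase, -0.71 and -0.66). No gene of these lists fell at both times with ICG-001 in PANC1.

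Paralogs of the members had values of either sign with ICG-001. SHMT1, the cytosolic counterpart of SHMT2, had log2 ratios of ICG-001 over DMSO of -0.53 and -0.06 (HCT116) and of -0.08 and -0.15 (PANC1). MTHFD1L, the mitochondrial enzyme that releases formate after MTHFD2, rose at both times in HCT116 (0.68 and 0.58, the latter at the threshold). It also rose at 96 h in PANC1 (1.02, with 0.51 at 12 h). MTHFD2L had 0.22 and 0.50 (HCT116) and -0.01 and 0.22 (PANC1), and the cytosolic MTHFD1 had 0.09 and 0.08 (HCT116) and -0.41 and -0.19 (PANC1). PYCRL, the older name of PYCR3, had -0.38 and -0.13 (HCT116) and -0.19 and -0.48 (PANC1).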

How the data were processed

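The 10 enzymes and all gene lists were chosen with earlier results of these data known. The deposited intensity values are linear and were made by the authors in GenomeStudio, where arrays were quantile normalized with the background left in, and replicate arrays were then averaged into 1 column per group. This background shrinks the ratios of dim genes. Single-array values were not used here, and 0 columns were left without a sample. Groups came from the labels.

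Ratios are differences of log2 signals between columns of a line. Detection limits were set per column at 2.33 SD above the mode of the log2 signals, with the SD estimated from the lower side of that mode. A fold against a column at or under its limit is a lower bound, with the limit in place of the dimmer signal. The authors' own comparisons and error-model p-values were not used.

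Named besides the members were genes of the wider lists that passed 1.5-fold with a drug at 12 and 96 h, in 1 direction within a line, paralogs of the members and the 5 rows with the most similar profile; not every gene so named is reported here. Windows were printed for the 4 members with the highest lowest ratio over the ICG-001 comparisons. The alternatives tried were thresholds of 1.2-fold and 2-fold, omitting the filter, a limit at 5 SD, normexp with an offset of 16, centring, quantile normalization over 12 columns and the DMSO column of the other time. The calling step was tried on simulated columns, made from a DMSO column of each line with added noise and doubled signals of some bright genes. That trial did not cover dim genes, smaller changes or differences between cultures. Python 3.11.15, numpy 2.4.6, pandas 2.3.3, scipy 1.17.1, matplotlib 3.10.9 and, for normexp, limma 3.58.1 in R 4.3.3 were used.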

Additional observations from a re-analysis of the deposited data

Results flagged for a closer look

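PSPH and MTHFD2 moved with time in opposite directions in the lines, in each of the 3 treatments. For PSPH the mean log2 ratio of 96 h over 12 h in HCT116 minus that in PANC1 was -0.67, and for MTHFD2 it was -0.57. The difference was not tested. Such an opposite pattern was found for 706 (4.21%) of 16756 genes that both lines expressed above the limit.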

How the results depend on the processing

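No paired analysis was possible because each group had 1 column that averages its replicates. The number of arrays and the background left in the signal limit dim genes most, CBS in HCT116 and CTH in PANC1. Without a filter, with a limit at 5 SD, with ratios centred on their median and with quantile normalization over 12 columns, all 28 counts stayed within 1.5 times and the 14 medians moved by less than the noise of dim genes. The last of these lost 2 member calls, PHGDH with ICG-001 over DMSO in HCT116 at 12 h (log2 ratio 0.578), which leaves ASNS, PSAT1 and MTHFD2 called in all 4 comparisons, and PSPH in PANC1 at 96 h (0.581). The share of all genes called in a direction, 0.336% to 5.23% in the values as reported, moves with the setting and is given with each.

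At a threshold of 2-fold (0.00592% to 1.39% of all genes), 1 of 9 members rose with ICG-001 over DMSO in HCT116 at 12 h (1.04%). At 96 h there, 3 of 9 rose (1.13%). In PANC1 with ICG-001 at 12 h, ASNS, PHGDH, PSAT1 and CBS passed 2-fold (0.355% of all genes). At 96 h there, 3 of 10 rose (0.776%). With C646 in PANC1 at 12 h, 0 of 10 rose (1.39%). For ICG-001 over C646 in HCT116, 0 of 9 members then rose at 12 h (0.939%) and 2 of 10 at 96 h (0.737%). In PANC1, 3 of 10 rose at 12 h (0.185%) and 3 of 10 at 96 h (0.629%). With DMSO in HCT116, 0 of 9 fell with time (0.166%). At 1.2-fold (up to 17.6% of all genes), 1 of 9 members fell with ICG-001 in HCT116 at 96 h (17.6%). In PANC1 at 12 h, 9 of 10 rose with ICG-001 (9.76%). With C646 at 1.2-fold in HCT116, 3 of 9 fell at 12 h (11.5%). At 96 h there, 2 of 10 rose (10.03%) and 2 fell (10.1%). With C646 in PANC1, 4 of 10 rose (13.6%) and 1 fell (13.5%) at 12 h, and 2 of 10 rose at 96 h (10.2%). With DMSO at 1.2-fold, 6 of 9 fell with time in HCT116 (10.4%) and 1 of 10 in PANC1 (6.4%).

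With normexp (2.21% to 11.4% of all genes called), the median log2 ratios of ICG-001 over DMSO were 0.63 and 0.93 (HCT116) and 1.09 and 1.00 (PANC1), those over C646 were 0.83 and 0.87 (HCT116) and 0.97 and 1.02 (PANC1), and that of time in PANC1 with DMSO was 0.50. Normexp also gave 1 fall with C646 in HCT116 at 12 h (5.38% of all genes) and 1 rise at 96 h (4.96%). It gave 2 rises with C646 in PANC1 at 12 h (9.36%) and 2 falls with time in HCT116 with DMSO (4.91%). With it, CBS was lower with ICG-001 than with C646 in HCT116 at 96 h (8.28% of all genes). The signals of CBS there, 130.1 and 151, were under the limit and just above it.

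With the DMSO column of the other time (0.565% to 7.09% of all genes called), the medians for ICG-001 were 0.99 and 0.32 (HCT116) and 0.45 and 1.03 (PANC1), and for C646 0.24 and -0.21 (HCT116) and -0.30 and 0.30 (PANC1). Then 3 members rose with ICG-001 in HCT116 at 96 h. With C646 in HCT116, 1 rose and 1 fell at 12 h (5.95% and 5.79% of all genes) and 1 fell at 96 h (2.97%), and in PANC1 0 rose and 3 fell at 12 h (2.12% and 1.12%) and 4 rose at 96 h (5.90%). PHGDH with C646 in PANC1 at 12 h turned to -0.60. This alternative sets columns of different times against each other.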
